A study of Homo sapiens with 12 samples.

Results

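The liver makes nearly all of the clotting and complement proteins that circulate in blood plasma, and 38 genes of these proteins were followed here in HepG2 cells, a cell line derived from a human liver tumour that secretes many plasma proteins. The genes were taken as a list by name, although earlier results of these data were known. Of them, 19 encode proteins of coagulation and of the removal of clots, and 19 encode proteins of complement. A named probe was found for 37 of the 38, among 18852 named genes in all. The gene of prothrombin, F2, was not analysed here. RNA was measured on 12 Illumina HumanHT-12 BeadChips, 6 from cells in high glucose (25 mM) and 6 from cells in low glucose. The labels give the low-glucose medium as 2.7 mM, whereas the methods of the study give 0 mM, and the files do not settle it. All cultures were of the same line at passages 8 to 10, had been maintained in 25 mM glucose with serum, were held in 2.7 mM glucose for 16 h and were then treated for 8 h. No array was from the start of the treatment, so "higher" and "lower" are differences between the groups and not changes over time. The study calls the replicates biological; the sources do not say which cultures were grown or harvested together. HepG2 is a single tumour line with no other liver cells beside it. In such bulk RNA, fewer cells that make a transcript and less of it per cell cannot be told apart.

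Coagulation is a chain of serine proteases that activate each other on membranes and end in thrombin, which cuts fibrinogen into fibrin. Several of the proteases need vitamin K in the liver cell to be made in active form, cofactors speed them up, and a set of inhibitors and an anticoagulant pathway hold them back, while plasmin dissolves the clot. Complement is a related chain of proteases. It is started by antibody, by sugars bound by lectins or by slow spontaneous turnover, it converges on the cleavage of C3 and C5, and it ends in a pore in the membrane of the target. Regulators in plasma and on cell surfaces stop it on host cells.

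The authors' intensities were quantile normalized, so that the sorted values of any pair of arrays differed by at most 0.825 units, and total brightness carried no difference of depth. Across genes, Pearson's r was 0.994 to 0.997 within a group and 0.985 to 0.988 between the groups. The lowest intensity was 47.2 and the median 90.8, so some background appears to remain, and the change of a faint gene may be understated. As a guide to background, 364 olfactory receptor genes, which liver cells are not known to use, had a median intensity of 77.7, and genes whose mean was under their 95th percentile of 111 are called dim below. That covered 43.1% of all genes. The labelled cell type held: none of 8 measured hepatocyte markers was dim, and their summed intensity ran from 119393 to 137348 in high glucose and from 119794 to 131167 in low glucose. Of the markers of other cell types, all 5 of macrophages were dim, as were the 2 measured of leukocytes. Also dim were 4 of 5 of platelets and megakaryocytes, 4 of 5 of stellate cells and fibroblasts and 2 of 5 of endothelial cells. The summed stellate and fibroblast markers were lower in high glucose, at 777 to 912 against 968 to 1210.0, chiefly through PDGFRB (log2 change -0.55, adjusted p = 2.3e-06 from limma), and the summed platelet markers were at 501 to 619 against 607 to 643. Their part in the results was not tested.

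The clotting and complement genes moved in both directions and by little. High and low glucose were compared with limma on log2 intensities, with p-values adjusted over all 18852 genes by the Benjamini-Hochberg method and a gene said to have changed at an adjusted p under 0.05. Of the 37 genes, 14 changed (37.8%), against 29.9% of all genes. Among them 9 were higher in high glucose (24.3%, against 16.6% of all genes) and 5 were lower (13.5%, against 13.3%). For 9 genes (24.3%, against 18.5% of all genes), no array of one group lay within the range of the other. Leaving out dim genes, 14 of 28 changed, where 49.8% of all genes that were not dim did. The median log2 change, high minus low glucose, was -0.01 over the 37 genes and 0.01 over all genes. The median size of the change was 0.123 over the 37 genes and 0.106 over all genes. Only MBL2 changed by at least 1.5-fold, as 1072 of all genes did. Complement and coagulation gave like counts: 5 of 18 measured coagulation genes were higher and 2 lower, and 4 of 19 complement genes were higher and 3 lower.

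**Figure D1:**
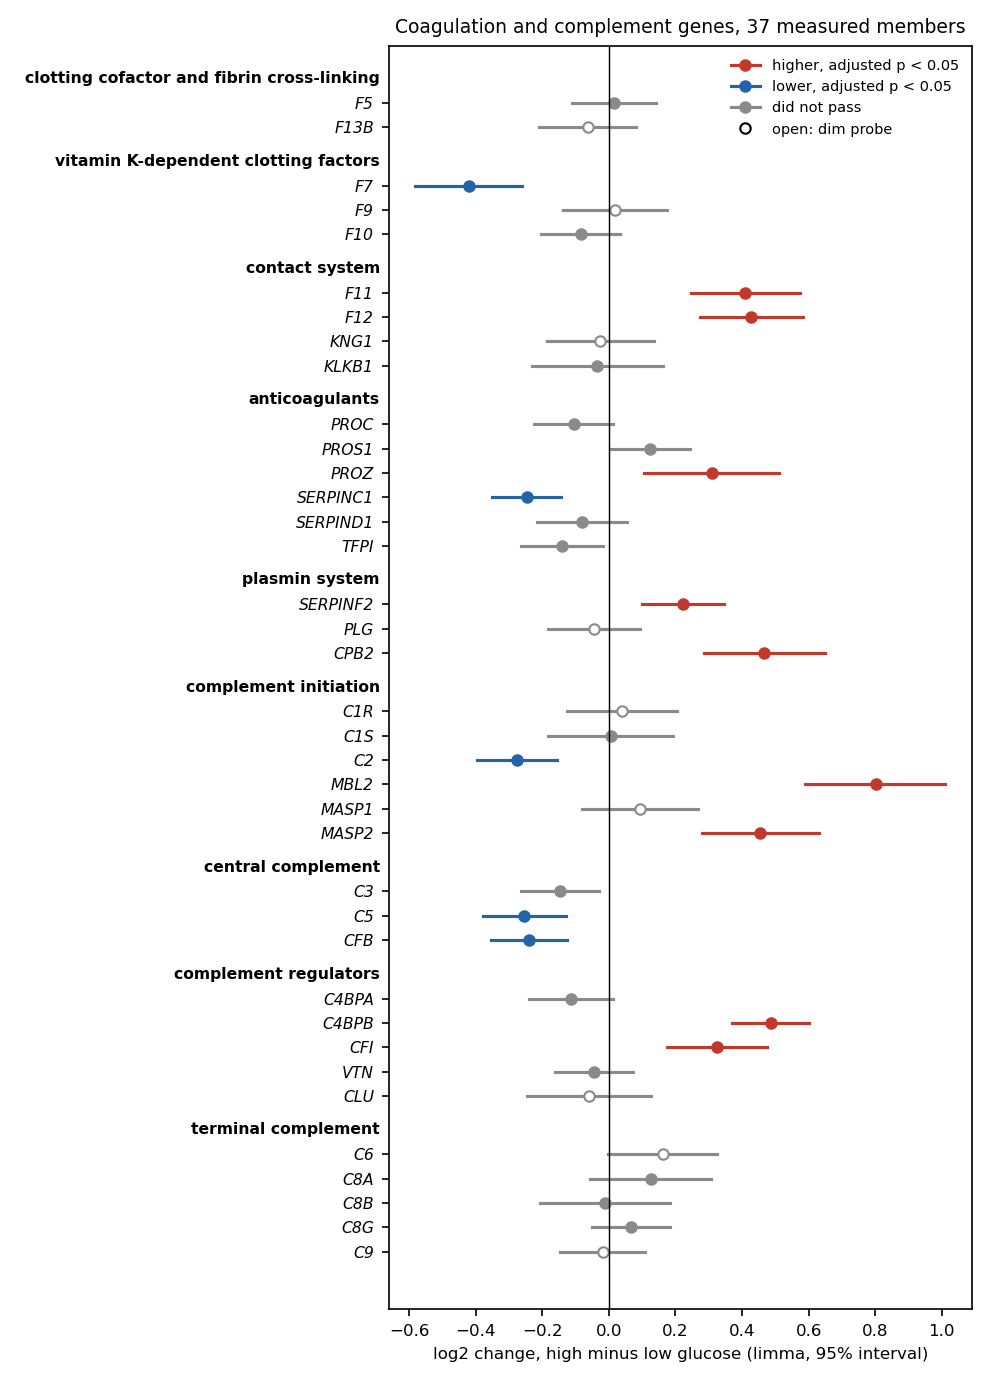
Log2 change (high minus low glucose, horizontal axis) of the 37 measured clotting and complement genes, grouped by the role of the protein, with the 95% interval from limma as a bar and open symbols for dim genes. The points lie on both sides of 0 in several roles, MBL2 lies farthest out at 0.80, and the 9 dim genes all have intervals that reach 0.

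The 3 measured vitamin K-dependent proteases gave 1 change (33.3%, against 29.9% of all genes). F7 encodes factor VII, which starts coagulation together with tissue factor. Its intensity ran from 328 through a median of 388 to 407 in high glucose, and from 432 through 512 to 570.0 in low glucose. All 6 high-glucose arrays lay below all 6 low-glucose arrays. F7 was thus 1.34-fold lower in high glucose (log2 change -0.42 ± 0.08 SE, adjusted p = 8.8e-05 from limma), but with the mean of its 3 probes the log2 change was -0.14 (adjusted p = 0.11). F10, the gene of factor X, which factor VII activates and which makes thrombin, ran from 1344 to 1527 in high glucose and from 1377 to 1636 in low glucose, and these ranges overlapped (log2 change -0.09, 95% interval -0.20 to 0.03, adjusted p = 0.32). F9, the gene of factor IX, was dim. The genes of the cofactor factor V (F5) and of the B subunit of the fibrin-cross-linking factor XIII (F13B, dim) did not pass either: F5 had a log2 change of 0.02 with an interval of -0.11 to 0.14.

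In the contact system, which starts coagulation on charged surfaces, the genes of both factor XII and factor XI rose. F12 encodes factor XII, the first protease of this route. It ran from 737 through 896 to 953 in high glucose, against 564 through 646 to 728 in low glucose. The groups did not overlap, although high-glucose replicates 1 and 2 were the lowest of their group (1.34-fold higher, log2 change 0.43 ± 0.08 SE, adjusted p = 4.4e-05 from limma). F11 encodes factor XI, the protease that factor XII activates. Its values were 171, 176 and 188 (lowest, median and highest) in high glucose and 121, 136 and 139.8 in low glucose. Here too every high-glucose array was above every low-glucose array (1.33-fold higher, log2 change 0.41 ± 0.08 SE, adjusted p = 1.6e-04, and a log2 change of 0.26 with the mean of its brighter and its dim probe). KLKB1, the gene of plasma prekallikrein, a close relative of factor XI, ran from 86.9 to 128 and from 102 to 126, with the groups overlapping (log2 change -0.03, 95% interval -0.23 to 0.16). Its mean of 111.3 was barely above the dim level of 111.2, so its interval says little of the RNA. The kininogen gene KNG1 was dim.

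Of 6 anticoagulant genes, 1 was higher and 1 lower (16.7% each, against 16.6% and 13.3% of all genes). PROZ encodes protein Z, which carries an inhibitor of factor Xa to membranes. Its intensity was 165 at the lowest, 197 at the median and 225 at the highest in high glucose, against 128, 163 and 182 in low glucose. The groups overlapped in the range of 165 to 182 (log2 change 0.31 ± 0.10 SE, adjusted p = 0.016 from limma). The call for PROZ rested on single arrays: the adjusted p was 0.053 without high-glucose replicate 1 and 0.057 without low-glucose replicate 3. SERPINC1 encodes antithrombin, the main inhibitor of thrombin and factor Xa in plasma, and was 1.19-fold lower in high glucose, at 10179 to 11201 against 11679.8 to 13658 (log2 change -0.25, adjusted p = 2.4e-04). Its groups did not overlap. PROC, PROS1, SERPIND1 and TFPI did not pass the test, with log2 changes from -0.14 for TFPI to 0.12 for PROS1. PROS1 encodes protein S, the cofactor of activated protein C (PROC). A near-identical pseudogene of PROS1 is known, and whether the probe tells them apart was not tested. The 95% interval of PROS1 was 0.002 to 0.244 and its call turned on low-glucose replicate 3, an array of 4054 where the other low-glucose arrays were at 3409.7 to 3558 (adjusted p = 0.13 with it and 0.037 without it). TFPI, which encodes an inhibitor of factor Xa and of the complex of factor VIIa with tissue factor, had an adjusted p of 0.079, and of 0.028 without low-glucose replicate 4.

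In the plasmin system, genes of both plasma inhibitors of clot removal were higher. CPB2 encodes the carboxypeptidase TAFI, which removes from fibrin the residues that plasminogen binds. Its intensity ran from 829.6 through 986 to 1090.1 in high glucose and from 568 through 730.4 to 808 in low glucose. No high-glucose array fell within the low-glucose range (1.38-fold higher, log2 change 0.47 ± 0.09 SE, adjusted p = 1.1e-04 from limma). SERPINF2 encodes alpha-2-antiplasmin, which binds and blocks plasmin, and was at 2058 to 2455 against 1652 to 2098 (log2 change 0.22, adjusted p = 0.0041). Its groups overlapped slightly. PLG, the gene of plasminogen itself, was dim.

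Among the genes that start complement, MBL2 and MASP2 of the lectin route were higher and C2 was lower. MBL2 encodes mannose-binding lectin, which binds sugars on microbes, and had the largest change of the 37 genes. It ran from 301 through 327 to 396 in high glucose and from 152 through 211 to 226 in low glucose. The lowest high-glucose array was well above the highest low-glucose array (1.74-fold higher, log2 change 0.80 ± 0.10 SE, adjusted p = 3.5e-07 from limma). High-glucose replicates 1 and 2, at 389 and 396, stood above the other high-glucose arrays (301 to 331), while low-glucose replicates 1 and 2 were the lowest of their group. MASP2 encodes the protease that mannose-binding lectin carries and that cuts C4 and C2. Its values were 542, 636 and 711 in high glucose and 364, 461 and 556 in low glucose. The groups touched at 542 to 556 (log2 change 0.46 ± 0.09 SE, adjusted p = 1.1e-04, and a log2 change of 0.24 with the mean of all its probes, of which 1 is dim). The arrays did not order the genes alike: high-glucose replicates 1 and 2 had the highest MBL2 and the lowest MASP2 of their group. C2, the gene of the protease that MASP2 and C1s cut, ran from 1443 to 1568 in high glucose against 1634 to 1995 in low glucose, without overlap (log2 change -0.27, adjusted p = 4.2e-04). COLEC11, outside the 37 genes and named after its values were seen, encodes a further lectin that starts the lectin route and was lower, at 371 to 469.6 against 457 to 569.7 (log2 change -0.32, adjusted p = 0.0013). C1S, the gene of a protease of the antibody-started route, had a log2 change of 0.01 with an interval of -0.18 to 0.19. C1R, the gene of its partner, and MASP1, that of a further lectin-bound protease, were dim.

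Of the central proteins, CFB and C5 were lower and C3 was at the edge of the threshold. CFB encodes factor B, the protease of the alternative route, and was at 3647 to 4294 against 4100.0 to 4946 (log2 change -0.24, adjusted p = 1.0e-03 from limma). Its groups overlapped through high-glucose replicate 5 alone, since the other 5 high-glucose arrays were at 3647 to 3813. C5, whose cleavage opens the terminal route, was at 2835 to 3564 against 3397 to 4079, with some overlap (log2 change -0.25, adjusted p = 0.0014). C3, the protein on which all routes converge, was at 1281 to 1552 in high glucose and 1519 to 1649 in low glucose (log2 change -0.15, 95% interval -0.26 to -0.03, adjusted p = 0.051). It passed without high-glucose replicate 1 (adjusted p = 0.047) or high-glucose replicate 3 (adjusted p = 0.025).

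None of the 5 genes of the pore passed the test. C8A, C8B and C8G encode the chains of C8, with log2 changes of 0.13, -0.01 and 0.07 and intervals that together span -0.21 to 0.31. C8G is a lipocalin with no sequence kinship to the other chains. C6 and C9 were dim. C6 had a log2 change of 0.16 (adjusted p = 0.14, and 0.049 without low-glucose replicate 5).

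Of 5 regulators, 2 were higher (40%, against 16.6% of all genes) and none lower. C4BPB encodes the beta chain of C4b-binding protein, which ties this inhibitor of complement to protein S. It ran from 2833 through 3137 to 3409 in high glucose and from 2026 through 2221 to 2365 in low glucose. The groups were far apart compared with their spread, and the adjusted p was the lowest of the 37 genes (1.401-fold higher, log2 change 0.49 ± 0.06 SE, adjusted p = 6.2e-08 from limma). CFI encodes factor I, the protease that inactivates C3b and C4b. Its values were 743, 799 and 978 in high glucose and 625, 659 and 734 in low glucose. The groups lay close together without overlapping, and high-glucose replicates 1 and 2 were again the highest (1.25-fold higher, log2 change 0.33 ± 0.07 SE, adjusted p = 7.5e-04). C4BPA, the gene of the alpha chain, which binds C4b, was at 834 to 1044 against 967 to 1097, with the groups overlapping (log2 change -0.11, 95% interval -0.24 to 0.01, adjusted p = 0.18). VTN, the gene of vitronectin, a blood protein that blocks the insertion of the pore, had a log2 change of -0.05. CLU, the gene of clusterin, which does likewise, was dim.

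**Figure D2:**
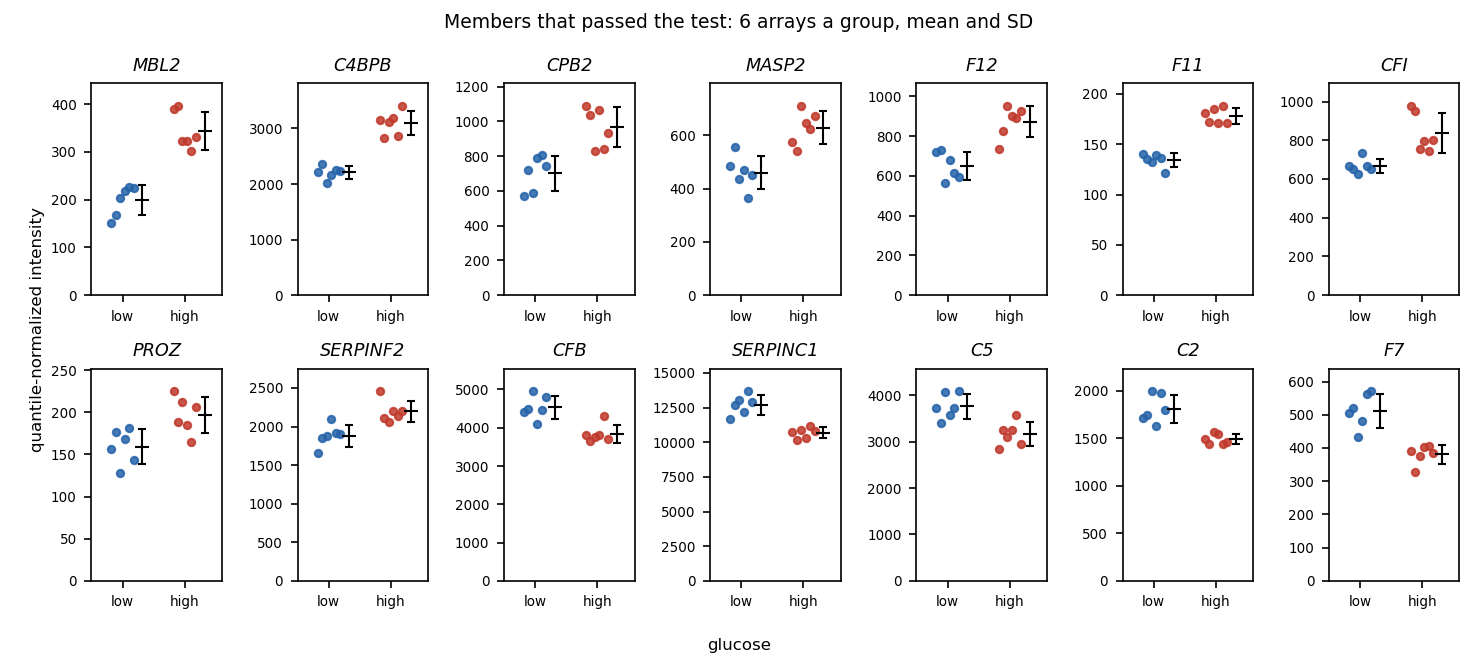
Intensity on each array (points, linear axis from 0) of the 14 clotting and complement genes that changed, with high-glucose and low-glucose arrays side by side and the mean and SD of each group of 6. MBL2 shows the widest gap for its level, at 301 to 396 against 152 to 226, whereas PROZ, SERPINF2, MASP2, C5 and CFB have arrays of both groups at the same height.

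The 23 genes that did not pass were 9 dim genes and 14 that were not dim, of which KLKB1 was barely above the dim level. Over the 14, the 95% intervals of the log2 change ran from -0.26 to 0.31. For none of these genes does a missed threshold show that its level was the same in both groups. For the dim genes F9, F13B, PLG, KNG1, C1R, C6, C9, MASP1 and CLU the readings were near those of the olfactory receptor genes, and their intervals say little of the RNA.

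Other probes of the same genes gave a second reading for 10 genes. These genes had 21 fainter probes, of which 6 were above the dim level, and 4 of the 21 passed the test over probes (25.6% of all 28098 named probes did). The fainter C4BPB probe was at 690.0 to 913 in high glucose and 550.0 to 697 in low glucose (log2 change 0.44, adjusted p = 6.1e-05 from limma), the same direction as the brighter one. The same held for the next MASP2 probe (0.37, adjusted p = 0.0065). For C3 and TFPI, whose brightest probes did not pass, a fainter probe was lower in high glucose. The C3 probe ran from 153 to 234 against 212 to 341 (log2 change -0.52, adjusted p = 4.2e-04) and the TFPI probe from 1119.6 to 1331 against 1313 to 1888 (-0.36, adjusted p = 4.1e-04). The fainter F7 probes did not pass (-0.20, and 0.20 for a dim probe, each with an adjusted p of 0.14). With the mean of all probes of a gene in place of the brightest, the log2 change of C3 was -0.34 (adjusted p = 8.9e-04) and that of TFPI -0.20 (adjusted p = 0.0048). No gene had probes that passed in opposite directions.

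Genes that lie near each other did not always move alike. In the RefSeq gene order, F7 and F10 are next to each other on chromosome 13. There is 1 protein-coding gene between F10 and PROZ, and F7 and PROZ have 2 between them. F7 fell, F10 did not pass and PROZ rose. Neither call held under all alternatives: F7 did not pass with the mean of its probes. PROZ did not pass without high-glucose replicate 1 or without low-glucose replicate 3. The log2 intensity of PROZ minus that of F7 on the same array, whose zero has no meaning because probes differ in brightness, was -1.31 to -0.80 in high glucose and -1.99 to -1.51 in low glucose. These ranges did not overlap, and their means differed by 0.73. C4BPA and C4BPB are adjacent on chromosome 1 and their products form 1 protein. Of them, C4BPB rose and C4BPA did not pass. C4BPB minus C4BPA was 1.58 to 1.94 in high glucose and 1.03 to 1.25 in low glucose, without overlap. The means differed by 0.60. These pairs were singled out after their values were seen, so no test is given. For the other pairs of neighbours that were computed (F7 and F10, F10 and PROZ, C2 and CFB, C8A and C8B), the differences overlapped between the groups. C2 and CFB, on chromosome 6 with 1 protein-coding gene between them, both fell, and C2 minus CFB differed by -0.04 between the groups. C8A and C8B, adjacent on chromosome 1, both failed to pass. Of F11 and KLKB1, adjacent on chromosome 4, F11 rose and KLKB1, barely above the dim level, did not pass. The difference between them was not computed, nor was that between C1R (dim) and C1S, adjacent on chromosome 12.

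**Figure D3:**
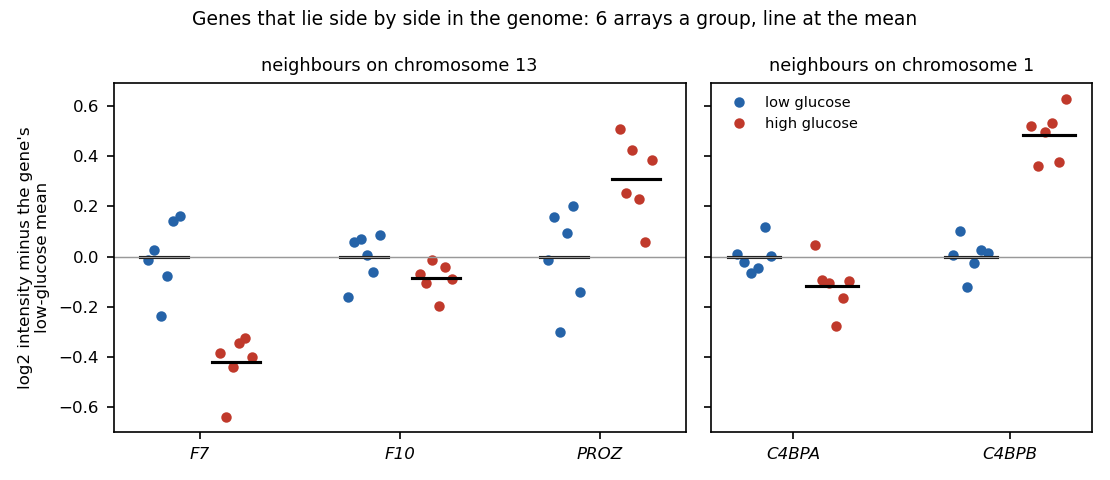
Log2 intensity on each array minus the mean of the low-glucose arrays of the same gene (vertical axis) for F7, F10 and PROZ of chromosome 13 and for C4BPA and C4BPB of chromosome 1, with high-glucose and low-glucose arrays apart. The high-glucose arrays lie below 0 for F7 and above 0 for C4BPB, and for F10, PROZ and C4BPA the groups overlap.

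The promoters of these neighbours are shown so that the pairs singled out can be set side by side, together with that of MBL2, the gene with the largest change. RefSeq windows of 300 bases (250 before to 50 after an annotated start, GRCh38.p14) matched 32 of the 38 genes by symbol. The motifs searched, 4 in all and on both strands, were the E-box CACGTG, CAAAGTCCA (an HNF4 motif), GTTAATNAT (HNF1) and TGTTTAC (forkhead factors). Each line is 5′ to 3′ on the strand of the gene, in lower case with motif matches in capitals. Where a gene has several starts, the window with the most matches is shown. The windows are chr13:113105541-113105840 for F7, chr13:113122549-113122848 for F10, chr13:113158398-113158697 for PROZ, chr1:207103983-207104282 for C4BPA and chr1:207088989-207089288 for C4BPB, all on the plus strand, and chr10:52771603-52771902 on the minus strand for MBL2.
F7: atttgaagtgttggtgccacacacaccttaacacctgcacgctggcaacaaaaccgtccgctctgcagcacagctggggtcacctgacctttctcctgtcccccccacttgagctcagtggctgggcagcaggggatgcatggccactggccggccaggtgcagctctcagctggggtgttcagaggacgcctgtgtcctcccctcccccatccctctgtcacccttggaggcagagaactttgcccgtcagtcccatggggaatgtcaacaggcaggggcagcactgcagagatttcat
F10: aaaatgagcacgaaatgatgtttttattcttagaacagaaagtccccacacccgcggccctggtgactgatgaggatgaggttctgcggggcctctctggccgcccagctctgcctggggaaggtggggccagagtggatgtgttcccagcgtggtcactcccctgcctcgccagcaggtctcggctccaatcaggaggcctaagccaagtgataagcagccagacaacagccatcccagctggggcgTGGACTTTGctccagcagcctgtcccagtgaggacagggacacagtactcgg
PROZ: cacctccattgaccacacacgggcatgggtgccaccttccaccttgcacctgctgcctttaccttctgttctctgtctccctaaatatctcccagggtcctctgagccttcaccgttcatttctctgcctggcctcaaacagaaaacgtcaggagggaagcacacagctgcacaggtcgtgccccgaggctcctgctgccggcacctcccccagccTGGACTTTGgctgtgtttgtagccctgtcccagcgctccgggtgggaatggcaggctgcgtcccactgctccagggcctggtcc
C4BPA: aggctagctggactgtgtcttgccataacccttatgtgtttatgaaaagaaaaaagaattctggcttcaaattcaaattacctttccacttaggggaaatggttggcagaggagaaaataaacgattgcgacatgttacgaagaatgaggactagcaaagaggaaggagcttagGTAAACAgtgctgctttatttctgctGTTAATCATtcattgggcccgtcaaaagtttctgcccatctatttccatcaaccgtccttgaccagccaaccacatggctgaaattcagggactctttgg
C4BPB: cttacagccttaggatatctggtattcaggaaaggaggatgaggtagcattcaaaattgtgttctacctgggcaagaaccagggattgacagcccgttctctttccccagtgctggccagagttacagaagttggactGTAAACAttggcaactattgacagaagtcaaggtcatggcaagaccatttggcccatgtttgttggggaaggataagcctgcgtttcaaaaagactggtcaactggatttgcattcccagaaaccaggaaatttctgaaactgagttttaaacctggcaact
MBL2: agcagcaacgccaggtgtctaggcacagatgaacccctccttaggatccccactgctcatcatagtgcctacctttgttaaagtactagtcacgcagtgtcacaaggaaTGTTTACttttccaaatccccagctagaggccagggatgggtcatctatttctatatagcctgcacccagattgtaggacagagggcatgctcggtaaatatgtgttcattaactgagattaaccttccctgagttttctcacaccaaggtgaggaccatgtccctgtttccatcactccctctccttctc
The F7 window has no exact match to any of the 4 motifs. F10 and PROZ both hold the HNF4 motif on the opposite strand, at -2 to 6 and at -34 to -26 from the start. C4BPA and C4BPB both hold the forkhead motif on the opposite strand, at -76 to -70 and at -112 to -106, and C4BPA also holds the HNF1 motif at -50 to -42. MBL2 holds the forkhead motif at -141 to -135. No matches overlap in these windows. Among the 32 genes, the forkhead motif was in 6 (C4BPA, C4BPB, C8B, KNG1, MBL2 and PROS1, 18.8%, against 4.19% of all 27305 genes with a window) and the HNF1 motif in 4 (C4BPA, C5, F13B and PLG, 12.5% against 0.963%). The HNF4 motif was in F10 and PROZ (6.25% against 0.472%), and the E-box in C2 and KNG1 (6.25% against 8.77%). Of the 6 genes with the forkhead motif, MBL2 and C4BPB rose and the others did not pass, and of the 4 with the HNF1 motif, C5 fell and the others did not pass. A match shows only that the letters are in the window. Variants of the letters were not searched, so a window without a match may still hold a site for the same factor.

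The rest of the pathway was read from a list of 52 further genes of clotting, clot removal and complement, of which 45 were measured. Of the 45, 14 changed (31.1%), close to the 29.9% of all genes, with 11 higher (24.4%, against 16.6% of all genes) and 3 lower (6.67%, against 13.3%) and a median log2 change of 0.01. Other coagulation genes gave 5 higher of 17 and clot removal 2 of 5, with none lower. Other complement genes gave 3 higher and 1 lower of 17, and complement regulators and receptors of the cell surface 1 higher and 2 lower of 6. In the list, 20 genes were dim, and 3 of these changed: VWF and C1QB were higher and C5AR1 was lower. VWF and C1QB had means of 67.4 and 75.4, under the median of 77.7 of the olfactory receptor genes. The other 25 were not dim, a class in which 49.8% of all genes changed.

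CD55 encodes decay-accelerating factor, which takes apart the C3 and C5 convertases on the cell surface, and had the largest change of the pathway. Its intensity ran from 623 through 667 to 722 in high glucose and from 1643 through 1748 to 1802 in low glucose. The groups were far apart (2.60-fold lower in high glucose, log2 change -1.38 ± 0.06 SE, adjusted p = 6.6e-17 from limma). CD59, which encodes the surface inhibitor of the pore and is named after its values were seen, was on the other side: 196 to 276 in high glucose against 152 to 182 in low glucose (log2 change 0.44, adjusted p = 3.1e-04). C5AR1, the gene of the receptor for C5a, was at 75.0, 76.6 and 79.7 in high glucose and 117, 134 and 140.1 in low glucose. The high-glucose arrays were at the median of the olfactory receptor genes and the mean over all arrays was dim. The size of its change may thus be understated (log2 change -0.77 ± 0.07 SE, adjusted p = 2.1e-09 from limma).

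Fibrinogen, the substrate of thrombin, is made of 3 chains. FGB, the beta chain gene, was at 2907, 3138 and 3597 in high glucose and 2102, 2145 and 2359 in low glucose. Every high-glucose array was above every low-glucose array (1.44-fold higher, log2 change 0.53 ± 0.06 SE, adjusted p = 2.2e-08 from limma). FGA, the alpha chain gene, named after its values were seen, likewise rose without overlap, from 9246 to 10554 in low glucose to 12577 to 14319.5 in high glucose (log2 change 0.45, adjusted p = 5.7e-08). These values are of the brightest probes. A fainter FGB probe, also not dim, was at 370 to 511 in high glucose and 326 to 455.5 in low glucose. Its groups overlapped (log2 change 0.26, adjusted p = 0.026 from limma), and the lowest log2 change of FGB over the alternatives was 0.39. The gamma chain gene FGG had a log2 change of 0.14 and an adjusted p of 0.06 from limma. SERPINA10 encodes the inhibitor of factor Xa that protein Z carries, and it was higher together with PROZ, at 582, 675 and 775 against 407, 538 and 545 (log2 change 0.44, adjusted p = 1.7e-04, named after its values were seen). In the making of vitamin K-dependent factors, VKORC1, the reductase that recycles vitamin K, had a log2 change of 0.15 (adjusted p = 0.023), and GGCX, the carboxylase that uses it, one of 0.04 (adjusted p = 0.64). VKORC1L1, the gene of a related reductase, had one of -0.15 and did not pass (adjusted p = 0.053). FGG, VKORC1, VKORC1L1 and GGCX too were chosen with their values seen.

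**Figure D4:**
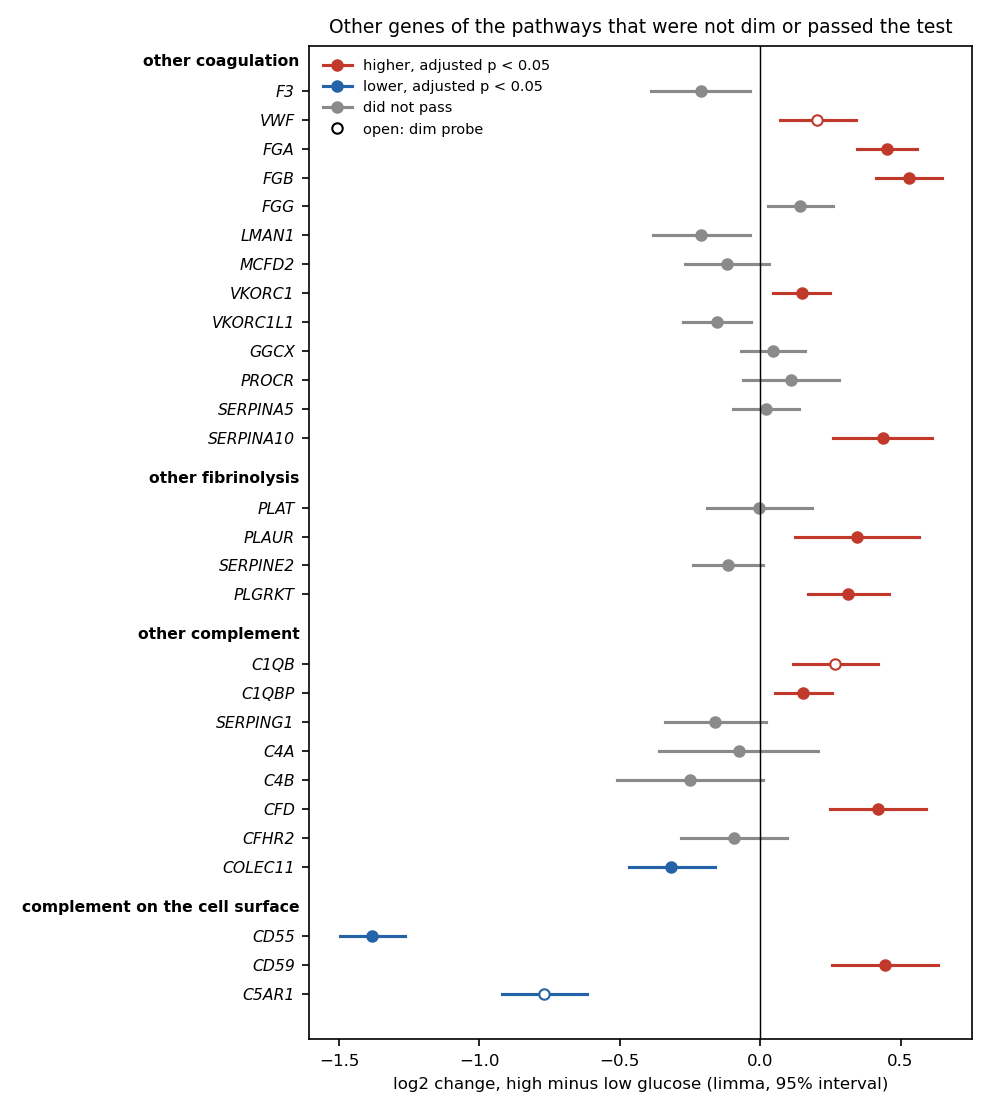
Log2 change (high minus low glucose, horizontal axis) with 95% interval from limma for the other pathway genes that were not dim or that changed, grouped by part of the pathway. CD55 stands alone at -1.38, FGB and FGA lie at 0.53 and 0.45, and most others lie near 0.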

How the data were processed

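The authors deposited probe intensities on a linear scale, quantile normalized across the 12 arrays. The submitters' processing notes name GenomeStudio 2010.1, and the study's methods name limma and CyberT without settings. Background correction and filters are not given in the sources used here. A further table, with 24 per-sample columns whose names match no label, was not used.

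Probes were named through the platform annotation: 28098 of 48803 have 1 symbol, 13 have several, 20692 have none. Probes with 1 symbol were used. The probe with the highest mean log2 intensity stood for a gene. The genes, lists and tests were chosen with earlier results of these data known. The test was limma (version 3.58.1, under R 4.3.3), with lmFit, a trended eBayes and no block, checked on simulated data first, with Benjamini-Hochberg adjustment over 18852 genes. Genes that changed with a log2 change of at least 0.3, and pathway genes with one of at least 0.5, are given in full; others are marked or given by range. The p-values set the difference between the groups against the spread of the arrays within them. How far those arrays stand for cultures grown apart is not given in the sources. The number of arrays limits the precision, and the median log2 SD of a group was 0.112 over the 37 genes and 0.120 over all genes. Alternatives were log2(intensity + 16), the mean of all probes, no trend, a regularised test after Cyber-T (window of 101 genes, prior weight 10), a replicate block, array weights, an intensity filter (over 100 on 6 arrays), normexp (offset 16), a threshold of 0.01 and each array left out.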

Additional observations from a re-analysis of the deposited data

Results flagged for a closer look

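In 5 of 80 groups of 6 arrays, 1 array lay apart from the other 5 by Dixon's test at the 95% level, which chance gives in about 1 of 20 groups. They are given as values. F7 in high glucose had replicate 2 at 327.8 and the others at 376.1 to 407.3, and without it the log2 change was -0.38 in place of -0.42. CFB in high glucose had replicate 5 at 4293.6 and the others at 3646.9 to 3813.2, and without it the log2 change was -0.27 in place of -0.24. PROS1 in low glucose had replicate 3 at 4053.8 and the others at 3409.7 to 3558.2, and without it PROS1 passed the test (log2 change 0.16, adjusted p = 0.037 from limma). C8B in high glucose had replicate 1 at 258.0 and the others at 201.6 to 213.1. VTN in low glucose had replicate 5 at 2243.6 and the others at 1904.7 to 1975.9. C8B and VTN did not pass with or without these arrays. The lone arrays are 5 different arrays, each of 1 gene.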

How the results depend on the processing

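The counts of clotting and complement genes moved little: over all alternatives 13 to 15 changed, 8 to 10 higher and 5 to 6 lower. Of the 14 that changed, 12 passed under all 20 alternatives. F7 did not with the mean of all probes (log2 change -0.14, adjusted p = 0.11 from limma), nor PROZ without high-glucose replicate 1 (0.27, adjusted p = 0.053) or low-glucose replicate 3 (0.25, adjusted p = 0.057). The mean of all probes also gave 0.24 for MASP2 and 0.26 for F11, and normexp gave -1.25 for C5AR1. Of the 23 that did not pass, 19 passed under no alternative. C3 passed with log2(intensity + 16), the mean of all probes, array weights, the intensity filter and without high-glucose replicate 1 or 3, TFPI with the mean of all probes and without low-glucose replicate 4, PROS1 without low-glucose replicate 3, and C6 without low-glucose replicate 5. In the pathway list, 7 were higher at an adjusted p under 0.01 in place of 11, and 5 were lower with the mean of all probes and 6 with the intensity filter in place of 3, while leaving out 1 array gave 3 to 5 lower (5 without low-glucose replicate 3, 5 or 6). With 1 array left out, the log2 change took either sign for F5 (-0.016 to 0.041), F9 (-0.028 to 0.053), KNG1 (-0.059 to 0.040), KLKB1 (-0.077 to 0.034), C1S (-0.040 to 0.073), C8B (-0.065 to 0.043), C9 (-0.057 to 0.007) and CLU (-0.108 to 0.005). The labels tie replicates of the same number by that number alone. Over all genes, correlations of their deviations from the group means were -0.054 to 0.021, and none of the 6 was highest with its own number. Such correlations cannot show whether same-numbered cultures were handled together, since differences confined to some genes could be missed. The replicate block gave 14 clotting and complement genes (9 higher, 5 lower), 15 in the pathway list (11 higher, 4 lower) and 5577 of all genes in place of 5644. The causes were not tested.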
